A study of Homo sapiens with 24 samples.

Results

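The 10 genes described here encode adhesion molecules of the immunoglobulin superfamily (ICAM1, ICAM2, ICAM3, ICAM5, VCAM1 and L1CAM), classical cadherins (CDH1, CDH2 and CDH6) and the hyaluronan receptor CD44. They were chosen by symbol, with earlier results of these data known, and their rows were taken from a table of raw counts on 39321 genes in 24 libraries. A-498 and 786-O are established human lines of clear cell renal cell carcinoma (ccRCC), and poly(A) RNA was sequenced from both. The cells carried either a non-targeting control siRNA pool (Cnsi) or an siRNA pool against PD-L1 (PD-L1si), each at 20 nM, and IFNγ at 50 ng/mL was added to some of them for the last 24 hours. Either siRNA without or with IFNγ gave 4 groups per line, named Cnsi, Cnsi IFNγ, PD-L1si and, for both agents, PD-L1si IFNγ. Each group had 3 libraries, and all of them went through transfection. The labels and the treatment protocol give all 4 groups, whereas the extraction protocol lists 3 and leaves out PD-L1si without IFNγ, so the comparisons that use that group rest on its labels. The labels call the PD-L1si cells knockout cells, whereas the protocols describe a transient siRNA pool, and 1 pool was used, so loss of PD-L1 and other effects of that pool cannot be told apart. Nothing in the labels says that the 3 libraries of a group came from separate cultures, so the p-values measure only the spread between these libraries.

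Several properties of the libraries bear on the values. In a check for mixed-up samples, 24 of the 24 libraries did not match the line in their label, so the text writes "labelled A-498" and "labelled 786-O" throughout, and a direction between the lines applies to the labels only and would turn if the labels of the lines were exchanged. The lines were sequenced on different instruments according to the study, and line and instrument cannot be told apart. Total counts were 19256316 to 27907526 (labelled A-498) and 26807875 to 30350461 (labelled 786-O) per library, and the 24 pairs of replicates differed beyond sampling noise (chi-square per degree of freedom 1.63 to 24.3). CD44 and CDH2 were listed at 0 in all 12 libraries labelled 786-O, so 8 of the 10 adhesion genes were measured there. The same held for 1475 genes with a summed count over 1000 in the libraries labelled A-498. Of these 1475 genes, 98.4% carried another Ensembl identifier version than GENCODE 44, against 28.9% of the 10433 genes over that count in both lines, and the part of the version in the zeros was not tested. CD44 and CDH2 were therefore treated as not measured in these libraries. The siRNA target CD274, which encodes PD-L1, had 3.99, 5.49 and 5.74 CPM (counts scaled to library size) in the Cnsi libraries labelled A-498 and 0.81, 1.01 and 0.926 CPM with PD-L1si. With IFNγ the CD274 level was 194 ± 4.72 CPM (SD, n = 3) in Cnsi cells and 27.7 ± 0.779 CPM in PD-L1si cells labelled A-498, and 60.4 ± 5.1 and 31.4 ± 1.17 CPM in those labelled 786-O. CD274 was thus lower with the siRNA in both labelled lines, but with IFNγ it stayed above the level of Cnsi cells without IFNγ, so the PD-L1si IFNγ cells were cells with reduced and not absent CD274 RNA.

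Adhesion molecules hold cells to each other, to matrix and to passing leukocytes. ICAM1 and VCAM1 are the ligands of the leukocyte integrins LFA-1 and VLA-4, and inflammatory cytokines are known to induce both through NF-κB and other transcription factors. Cadherins join cells of the same kind through calcium-dependent contacts that are anchored to catenins, and kidney tubule cells are known to carry CDH1 (E-cadherin), CDH2 (N-cadherin) and CDH6 (K-cadherin) in different segments. CD44 binds hyaluronan and osteopontin, and L1CAM is a neural adhesion molecule that is also found in some carcinomas.

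All 10 genes are protein-coding, and on GRCh38 (GENCODE 44) ICAM1 (chr19:10271093-10286615, plus strand), ICAM5 (chr19:10289952-10296778, plus strand) and ICAM3 (chr19:10333776-10339661, minus strand) lie in one cluster on chromosome 19. VCAM1 lies at chr1:100719742-100739045 on the plus strand and ICAM2 at chr17:64002594-64020634 on the minus strand. The cadherin genes lie at chr16:68737292-68835537 (CDH1, plus strand), chr18:27932879-28177946 (CDH2, minus strand) and chr5:31193686-31329146 (CDH6, plus strand). CD44 lies at chr11:35138882-35232402 on the plus strand and L1CAM at chrX:153861514-153886173 on the minus strand. RefSeq promoters (GRCh38.p14) were found for 7 of the 10 genes. Their start sites are those of RefSeq. Among the genes printed below, those of ICAM1 and CD44 lie downstream of the GENCODE 44 gene starts given above. The 250 bases before the start site are shown for ICAM1 (chr19:10270870-10271119, plus strand), VCAM1 (chr1:100719492-100719741, plus strand) and CD44 (chr11:35138921-35139170, plus strand), because these are the 3 most abundant of the genes that rose with IFNγ in the libraries labelled A-498. Capitals mark matches to any of 4 motifs searched on both strands, which were the core of the interferon-stimulated response element, a κB-like motif (GGNNNTTCC), the E-box bound by Snail and ZEB factors (CACCTG) and the AP-1 motif (TGANTCA).
ICAM1: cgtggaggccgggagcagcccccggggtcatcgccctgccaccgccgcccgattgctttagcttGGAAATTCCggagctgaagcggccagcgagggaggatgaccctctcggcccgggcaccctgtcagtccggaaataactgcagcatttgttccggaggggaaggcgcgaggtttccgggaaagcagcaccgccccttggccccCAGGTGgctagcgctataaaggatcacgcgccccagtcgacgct
VCAM1: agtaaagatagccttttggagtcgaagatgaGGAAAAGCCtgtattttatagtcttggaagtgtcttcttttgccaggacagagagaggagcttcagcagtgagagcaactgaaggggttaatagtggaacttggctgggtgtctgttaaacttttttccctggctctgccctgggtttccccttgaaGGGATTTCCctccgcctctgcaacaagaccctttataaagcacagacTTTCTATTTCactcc
CD44: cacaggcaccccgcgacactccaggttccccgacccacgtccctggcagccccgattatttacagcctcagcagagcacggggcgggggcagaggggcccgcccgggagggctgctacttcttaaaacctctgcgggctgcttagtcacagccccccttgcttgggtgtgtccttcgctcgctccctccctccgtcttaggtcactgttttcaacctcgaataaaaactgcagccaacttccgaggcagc
With the first base of the transcript as position 0, the ICAM1 promoter held a κB-like match (GGAAATTCC) at position -186 and an E-box (CAGGTG) at position -44. The VCAM1 promoter held κB-like matches (GGAAAAGCC and GGGATTTCC) at positions -219 and -62 and a response element core (TTTCTATTTC, chr1:100719727-100719736) at position -15. None of these matches overlapped another motif. The CD44 window, which lies within the gene positions given above, held no match. Of 27305 RefSeq promoters of 300 bases, 3.65% held the response element core, 20.1% the κB-like motif, 20.6% the E-box and 7.76% the AP-1 motif, so a match describes the letters and not a bound site.

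The order of the levels within a line was read from CPM per kilobase of exon. In the Cnsi libraries labelled A-498, ICAM1 stood first at 193 ± 8.48 CPM per kilobase (SD, n = 3), above 99.2% of the protein-coding genes with a count. CDH6 followed at 41.2 ± 1.83, CDH2 at 21.5 ± 0.143, VCAM1 at 19 ± 0.311 and CD44 at 16.1 ± 0.185 CPM per kilobase. The other 5 genes were low, with ICAM3 at 2.73 ± 0.287, ICAM5 at 1.25 ± 0.17, CDH1 at 0.496 ± 0.0648, L1CAM at 0.387 ± 0.0484 and ICAM2 at 0.041 ± 0.0188 CPM per kilobase. CDH1 and L1CAM were the only neighbours in this order whose SD ranges overlapped. In the Cnsi libraries labelled 786-O, ICAM1 was again first at 53 ± 1.39 CPM per kilobase. VCAM1 at 18.8 ± 0.564 and CDH6 at 18.1 ± 0.877 came next and did not differ beyond their spread. ICAM3 at 5.58 ± 0.381, ICAM5 at 4.27 ± 0.24 and L1CAM at 3.46 ± 0.112 CPM per kilobase formed a middle group, and ICAM2 at 0.0591 ± 0.015 and CDH1 at 0.0167 ± 0.00546 were close to the lower end of detection. ICAM2, an ICAM known from endothelium and leukocytes, had 2 to 12 counts in any of the 24 libraries.

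**Figure D1:**
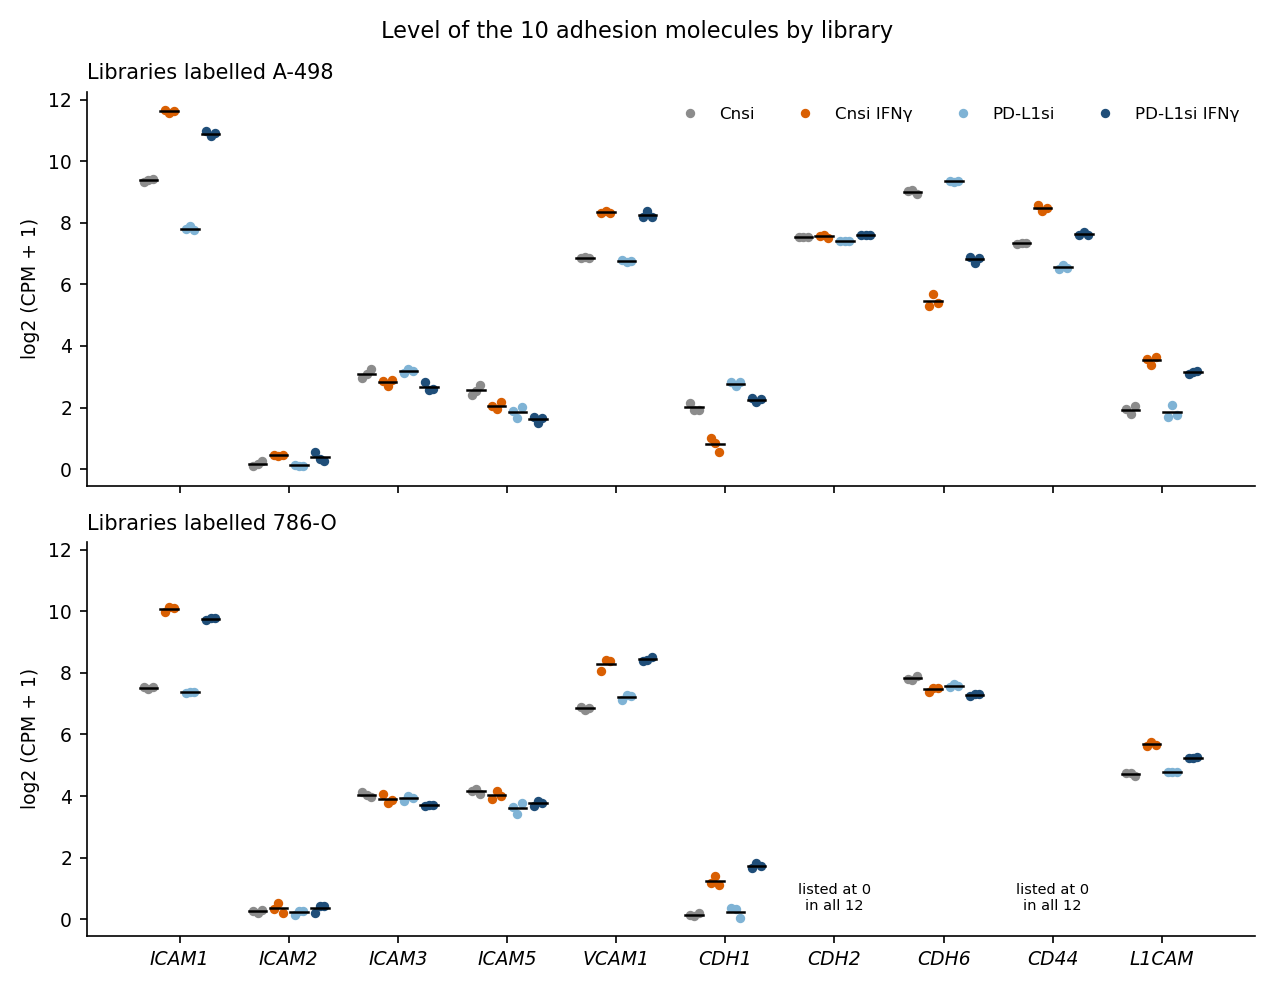
Level of each adhesion gene in each library as log2 (CPM + 1), with the libraries labelled A-498 above and those labelled 786-O below; a point is 1 library, a bar is the mean of 3, and colours stand for the 4 groups. ICAM1 was the highest of the 10 genes in the Cnsi IFNγ libraries of both labelled lines, and CDH1 was lower with IFNγ in those labelled A-498 and higher in those labelled 786-O.

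IFNγ was followed first in cells with the control siRNA. A gene was taken as risen or fallen where edgeR's quasi-likelihood test gave an adjusted p under 0.05, over all genes tested, and its log2 fold change was larger than 0.5. In the libraries labelled A-498, 8 of the 10 adhesion genes passed (5 rose and 3 fell), against 36.8% of all 20916 genes tested. In those labelled 786-O, 4 of the 8 measured genes passed and all 4 rose, against 18.5% of 21209 genes. The median log2 fold change of the adhesion genes was 0.58 and 0.78, and that of all genes tested -0.033 and 0.0049, in the libraries labelled A-498 and 786-O respectively. These are bulk cultures, in which more cells carrying a transcript and more RNA per cell cannot be told apart.

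ICAM1, the ligand of LFA-1 and Mac-1, was the most abundant of the genes per kilobase of exon and rose in both labelled lines. Labelled A-498, it had 634, 673 and 691 CPM without and 3243, 3045 and 3180.0 CPM with IFNγ. Labelled 786-O, it had 185, 177 and 186 CPM without and 1008, 1133 and 1107 CPM with IFNγ. All treated libraries lay above all untreated ones, by 4.74-fold and 5.92-fold in mean CPM. The log2 fold change was 2.24 ± 0.045 (SE, adjusted p = 2.96e-31) and 2.57 ± 0.05 (SE, adjusted p = 8.88e-24), respectively.

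VCAM1, the ligand of VLA-4, rose in both labelled lines as well. Labelled A-498, its level went from 114, 117 and 114 CPM to 319, 334 and 321 CPM. Labelled 786-O, it went from 116, 110.0 and 115 CPM to 266, 343 and 331 CPM. The groups did not overlap in either set, and replicate 1 of the Cnsi IFNγ libraries labelled 786-O was the lowest of its group. The log2 fold changes were 1.5 ± 0.046 (SE, adjusted p = 1.49e-25) labelled A-498 and 1.46 ± 0.076 (SE, adjusted p = 7.18e-11) labelled 786-O.

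The remaining ICAMs had low levels, and some of their calls rest on few counts. ICAM5, known from neurons, fell in the libraries labelled A-498, from 4.31, 4.77 and 5.62 to 3.14, 2.91 and 3.51 CPM, by a log2 fold change of -0.63 ± 0.14 (SE, adjusted p = 0.000128). In those labelled 786-O its groups overlapped, with a log2 fold change of -0.13 ± 0.09 (SE, adjusted p = 0.255) and a 95% interval of -0.31 to 0.041. ICAM3, a leukocyte ICAM, missed the fold threshold labelled A-498 (-0.32 ± 0.1) and the p threshold labelled 786-O (-0.15 ± 0.084). ICAM2 passed in the libraries labelled A-498 on 26 summed counts against 10, a ratio of 2.52 after division by the summed library sizes, with an exact 95% interval of 1.18 to 5.86 that covers counting error only. That call was lost without Cnsi replicate 1 (log2 fold change 1.19) and with DESeq2 (1.49). Labelled 786-O, the ICAM2 counts were 23 against 17, and the groups overlapped.

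CDH6, a cadherin of the proximal tubule, had 522, 530.0 and 487 CPM in the Cnsi libraries labelled A-498 and 38.3, 50.4 and 41 CPM after IFNγ. It was thus 11.9-fold lower in mean CPM, with a log2 fold change of -3.57 ± 0.076 (SE, adjusted p = 4.63e-18), and it moved from rank 2 to rank 5 among the 10 genes per kilobase. Labelled 786-O, it had 220.1, 217 and 237 CPM without and 164, 182 and 179.6 CPM with IFNγ, groups that did not overlap but whose log2 fold change of -0.36 ± 0.05 (SE, adjusted p = 1.65e-06) stayed within the fold threshold.

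CDH1, the epithelial cadherin, fell in the libraries labelled A-498 and rose in those labelled 786-O. Labelled A-498, it had 87, 70 and 70 counts in the Cnsi libraries and 24, 21 and 10 counts in the Cnsi IFNγ libraries. Labelled 786-O, it had 3, 2 and 4 counts without and 35, 45 and 30 counts with IFNγ. The log2 fold changes were -1.94 ± 0.2 (SE, adjusted p = 1.43e-10) and 3.69 ± 0.4 (SE, adjusted p = 2.7e-08). The level stayed low in every group: the scaled counts had a ratio of 0.235 (exact 95% interval 0.172 to 0.317) labelled A-498 and of 12.3 (6.24 to 27.6) labelled 786-O, and CDH1 reached no more than 1.37 ± 0.26 CPM in the Cnsi IFNγ libraries labelled 786-O. CDH2, measured in the libraries labelled A-498, had 186, 185 and 184 CPM without and 189, 192 and 182 CPM with IFNγ. These groups overlapped, and the log2 fold change was 0.022 ± 0.038 (SE, adjusted p = 0.646) with a 95% interval of -0.053 to 0.097.

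CD44 and L1CAM rose. CD44 had 159, 163 and 162 CPM in the Cnsi libraries labelled A-498 and 377, 335 and 357 CPM with IFNγ, a log2 fold change of 1.14 ± 0.045 (SE, adjusted p = 3.59e-22). L1CAM had 2.91, 2.43 and 3.11 CPM without and 11, 9.35 and 11.4 CPM with IFNγ, a log2 fold change of 1.9 ± 0.12 (SE, adjusted p = 3.92e-16). Labelled 786-O, where its level was higher throughout, L1CAM had 25.6, 25.6 and 24.2 CPM without and 48.6, 52.8 and 49.7 CPM with IFNγ, a log2 fold change of 1.0 ± 0.054 (SE, adjusted p = 3.85e-14). None of these groups overlapped.

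The same question was asked in cells with PD-L1si. In the libraries labelled A-498, 8 of the 10 genes passed with IFNγ (5 rose and 3 fell), against 33.5% of all genes tested, and in those labelled 786-O, 3 of 8 passed and rose, against 18.4%. Labelled A-498, ICAM1 rose 8.53-fold in mean CPM (log2 3.09 ± 0.047), VCAM1 2.82-fold (log2 1.5 ± 0.046), CD44 2.13-fold (log2 1.09 ± 0.047) and L1CAM 2.99-fold (log2 1.6 ± 0.13). CDH6 (log2 -2.54 ± 0.07), CDH1 (log2 -0.64 ± 0.13) and ICAM3 (log2 -0.58 ± 0.11) fell. ICAM2 also passed (log2 1.81 ± 0.57) on 20 summed counts against 7, and this call was lost without PD-L1si IFNγ replicate 1 (log2 fold change 1.33). Labelled 786-O, ICAM1 (log2 2.39 ± 0.05), VCAM1 (log2 1.23 ± 0.076) and CDH1 (log2 3.6 ± 0.32) rose. L1CAM missed the fold threshold there at 0.49 ± 0.055 (SE, adjusted p = 5.39e-08), although its groups did not overlap.

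**Figure D2:**
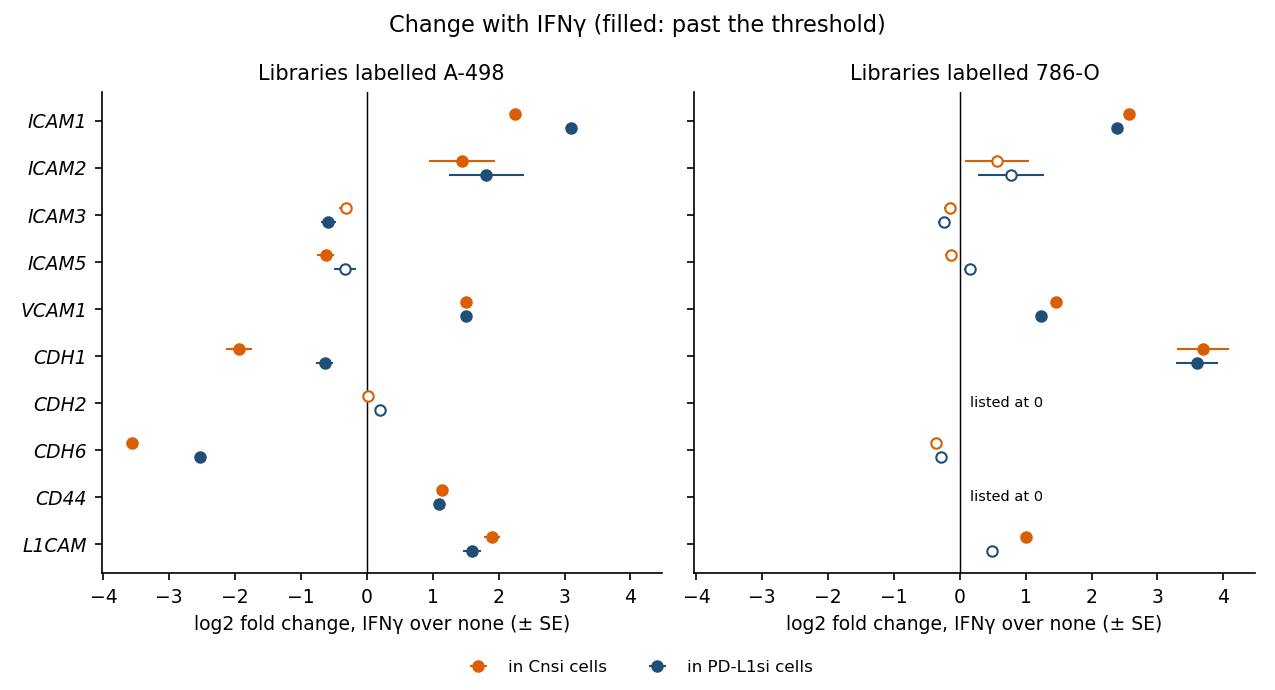
Log2 fold change with IFNγ for each adhesion gene, in cells with Cnsi (orange) and with PD-L1si (blue), in the libraries labelled A-498 (left) and 786-O (right); bars are 1 SE from a fit of 12 libraries, and filled points passed the threshold. ICAM1 and VCAM1 lay to the right in all 4 comparisons, CDH6 lay at -3.57 and -2.54 in the libraries labelled A-498, and CDH1 lay on opposite sides in the labelled lines.

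PD-L1si was next set against Cnsi at the same IFNγ condition. Under IFNγ, 5 of the 10 genes passed in the libraries labelled A-498 (2 rose and 3 fell), against 10.1% of all genes tested, and 1 of 8 passed in those labelled 786-O, against 3.03%. Without IFNγ, 4 of 10 passed in the libraries labelled A-498 (1 rose and 3 fell), against 8.48%, and 1 of 8 fell in those labelled 786-O, against 2.81%. All 4 comparisons share control or PD-L1si libraries with the IFNγ comparisons above, so the values are given side by side only.

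ICAM1, ICAM5 and CD44 were lower with PD-L1si at both IFNγ conditions in the libraries labelled A-498. ICAM1 had 221, 236 and 214 CPM in the PD-L1si libraries, 2.98-fold below Cnsi in mean CPM (log2 -1.57 ± 0.045 (SE, adjusted p = 4.23e-24)). With IFNγ as well it had 1997, 1810.0 and 1915 CPM, 1.65-fold below Cnsi IFNγ (log2 -0.73 ± 0.043 (SE, adjusted p = 7.38e-16)). All PD-L1si libraries lay below all Cnsi libraries of the same condition, and the PD-L1si IFNγ level remained above the Cnsi level. CD44 had 89.7, 97.7 and 91.6 CPM with PD-L1si and 195, 209 and 191 CPM with PD-L1si and IFNγ. Its log2 fold changes were -0.8 ± 0.046 (SE, adjusted p = 4.53e-16) without and -0.84 ± 0.045 (SE, adjusted p = 3.87e-17) with IFNγ. ICAM5 changed by -0.89 ± 0.14 and -0.6 ± 0.17, on 35 to 141 counts in a library.

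CDH1 and CDH6 moved the other way. CDH1 had 6.09, 5.43 and 6.05 CPM with PD-L1si and 3.97, 3.48 and 3.83 CPM with PD-L1si and IFNγ in the libraries labelled A-498. It rose by 0.96 ± 0.13 (SE, adjusted p = 1.41e-07) on the log2 scale without and by 2.27 ± 0.2 (SE, adjusted p = 1.3e-11) with IFNγ. CDH6 had 654, 635 and 661 CPM with PD-L1si, 1.27-fold the Cnsi mean, which stayed within the fold threshold (log2 0.34 ± 0.065 (SE, adjusted p = 0.00044)). With IFNγ it had 117, 103 and 116 CPM and rose 2.59-fold (log2 1.37 ± 0.076 (SE, adjusted p = 7.68e-11)), which was still below its level in Cnsi cells without IFNγ. VCAM1 did not pass in either condition (adjusted p = 0.0685 under and 0.0936 without IFNγ). The approximate 95% interval of its log2 difference was -0.19 to -0.017 under and -0.19 to -0.012 without IFNγ. CDH2 did not pass under IFNγ (-0.029 to 0.12), nor did ICAM2 or ICAM3. Without IFNγ, CDH2 had 168.4 CPM with PD-L1si against 184.9 CPM with Cnsi, in groups that did not overlap. That log2 fold change of -0.13 ± 0.038 (SE, adjusted p = 0.00594) stayed within the fold threshold. L1CAM missed the fold threshold under IFNγ at -0.43 ± 0.1 (SE, adjusted p = 0.00103) and passed without Cnsi IFNγ replicate 2, at -0.52.

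CDH1 under IFNγ and ICAM5 without it were the genes that passed in the libraries labelled 786-O. CDH1 rose under IFNγ, from 1.25, 1.67 and 1.18 to 2.15, 2.55 and 2.31 CPM (log2 0.77 ± 0.23 (SE, adjusted p = 0.0212)), and the groups did not overlap. This call was lost without Cnsi IFNγ replicate 1 (log2 fold change 0.71) or 3 (0.68) and without PD-L1si IFNγ replicate 2 (0.71) or 3 (0.78). ICAM5 fell without IFNγ, from 16.8, 17.8 and 15.9 to 11.6, 9.76 and 12.7 CPM (log2 -0.57 ± 0.092 (SE, adjusted p = 8.92e-05)), a call lost without PD-L1si replicate 2, at -0.47. ICAM1 had 162, 167 and 167 CPM with PD-L1si and 840.3, 879 and 871 CPM with PD-L1si and IFNγ, and its log2 fold changes of -0.15 ± 0.048 (SE, adjusted p = 0.0434) and -0.33 ± 0.047 (SE, adjusted p = 2.23e-05) missed the fold threshold although the groups did not overlap. L1CAM stood at 37, 36.9 and 37.1 CPM under IFNγ with PD-L1si against 48.6, 52.8 and 49.7 CPM with Cnsi (log2 -0.45 ± 0.053 (SE, adjusted p = 1.4e-06)), also within the fold threshold. CDH6 was lower with PD-L1si at both conditions, opposite to its direction labelled A-498. Its log2 fold changes were -0.24 ± 0.05 (SE, adjusted p = 0.00153) without and -0.17 ± 0.05 (SE, adjusted p = 0.0231) under IFNγ. ICAM5 changed by -0.28 ± 0.093 (SE, adjusted p = 0.0435) under IFNγ. These changes of CDH6 and ICAM5 also stayed within the fold threshold, and their groups did not overlap. VCAM1 did not pass in these libraries. Its log2 fold change was 0.15 ± 0.074 (SE, adjusted p = 0.228) under IFNγ, with an approximate 95% interval of 0.0011 to 0.29. Without IFNγ it was 0.38 ± 0.076 (SE, adjusted p = 0.00273), within the fold threshold, with an approximate interval of 0.23 to 0.53.

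**Figure D3:**
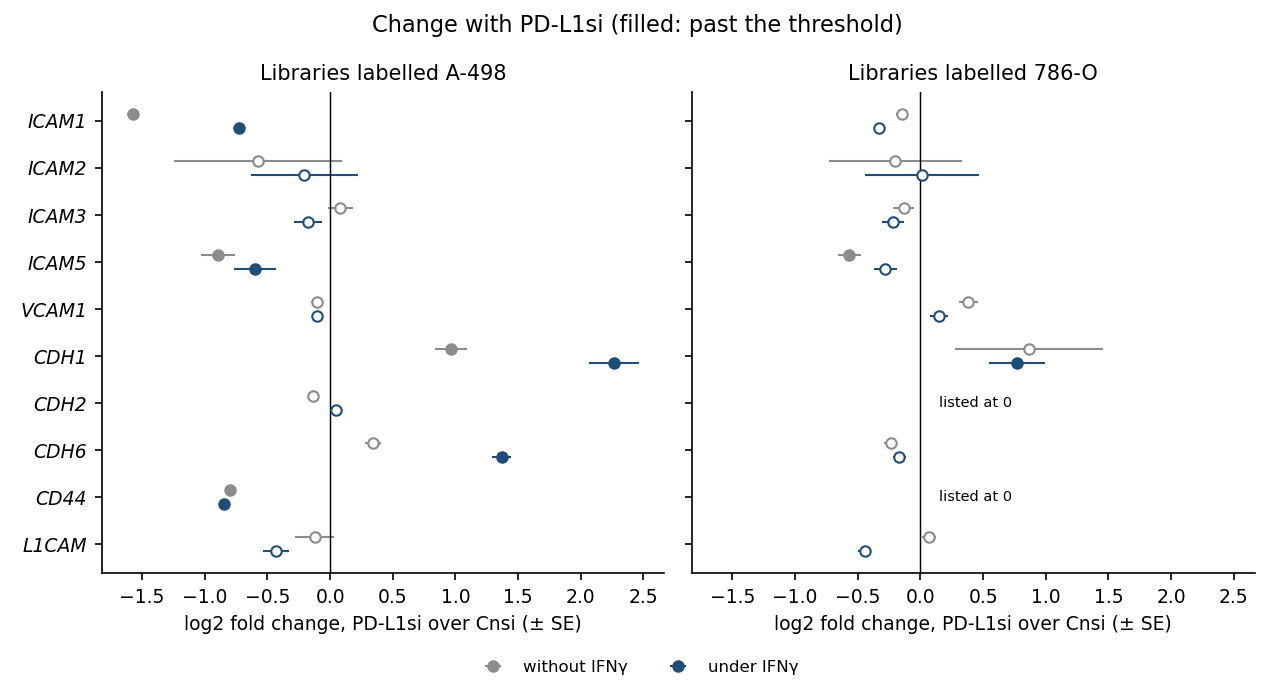
Log2 fold change of PD-L1si over Cnsi for each adhesion gene, without IFNγ (grey) and under IFNγ (blue), in the libraries labelled A-498 (left) and 786-O (right); bars are 1 SE from a fit of 12 libraries, and filled points passed the threshold. In the libraries labelled A-498, ICAM1, ICAM5 and CD44 lay to the left and CDH1 to the right at both conditions, and in those labelled 786-O the filled points are ICAM5 without and CDH1 under IFNγ.

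Whether the IFNγ effect itself differed between siRNAs was tested as an interaction, where a value above 0 means that the log2 change with IFNγ was the more positive one in PD-L1si cells. Labelled A-498, 3 of the 10 genes passed, against 2.45% of all genes tested. The interaction was 0.85 ± 0.061 (SE, adjusted p = 5.53e-12) for ICAM1, 1.3 ± 0.25 (SE, adjusted p = 0.000335) for CDH1 and 1.03 ± 0.1 (SE, adjusted p = 1.78e-06) for CDH6. ICAM1 thus had a larger relative rise from a lower starting level, and the falls of CDH1 and CDH6 were smaller with PD-L1si. The rise with IFNγ was 2.82-fold with Cnsi and 2.82-fold with PD-L1si for VCAM1, and 2.21-fold and 2.13-fold for CD44, and their interactions, 5.5e-05 ± 0.06 and -0.048 ± 0.064, did not pass. Labelled 786-O, 1 of 8 genes passed, against 0.099% of all genes tested. It was L1CAM at -0.52 ± 0.077 (SE, adjusted p = 0.00283), whose rise with IFNγ was 2.01-fold with Cnsi and 1.4-fold with PD-L1si. That call was lost without Cnsi replicate 3 (-0.49) or Cnsi IFNγ replicate 2 (-0.48).

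The same effects were compared between the labelled lines in 1 fit of all 24 libraries, as labelled 786-O minus labelled A-498, over the 21584 genes not at 0 in either. For the IFNγ effect in Cnsi cells 3 of the 8 genes passed, against 24% of all genes tested. The difference was 5.55 ± 0.42 (SE, adjusted p = 4.29e-17) for CDH1, 3.13 ± 0.094 (SE, adjusted p = 4.19e-27) for CDH6 and -0.98 ± 0.13 (SE, adjusted p = 7.59e-09) for L1CAM. VCAM1, at -0.11 ± 0.097, and ICAM1, at 0.24 ± 0.074 (SE, adjusted p = 0.0062), did not pass both criteria. For the PD-L1si effect under IFNγ 2 of 8 passed, against 4.57%, namely CDH1 at -1.49 ± 0.3 (SE, adjusted p = 0.000236) and CDH6 at -1.53 ± 0.095 (SE, adjusted p = 4.56e-15). ICAM1 missed the fold threshold at 0.41 ± 0.074 (SE, adjusted p = 4.34e-05). Under IFNγ, CD274 was 194 CPM with Cnsi and 27.7 CPM with PD-L1si labelled A-498, but 60.4 and 31.4 CPM labelled 786-O. Line and strength of the siRNA thus cannot be told apart in this comparison. For the level in Cnsi cells 6 of 8 passed, against 50.8%. ICAM1, CDH1 and CDH6 were lower in the libraries labelled 786-O, with log2 differences of -2.08 ± 0.055, -5.04 ± 0.31 and -1.41 ± 0.064. ICAM3, ICAM5 and L1CAM were higher there, with log2 differences of 0.81 ± 0.093, 1.56 ± 0.11 and 2.94 ± 0.098, and VCAM1 at -0.23 ± 0.07 and ICAM2 at 0.31 ± 0.58 did not pass.

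**Figure D4:**
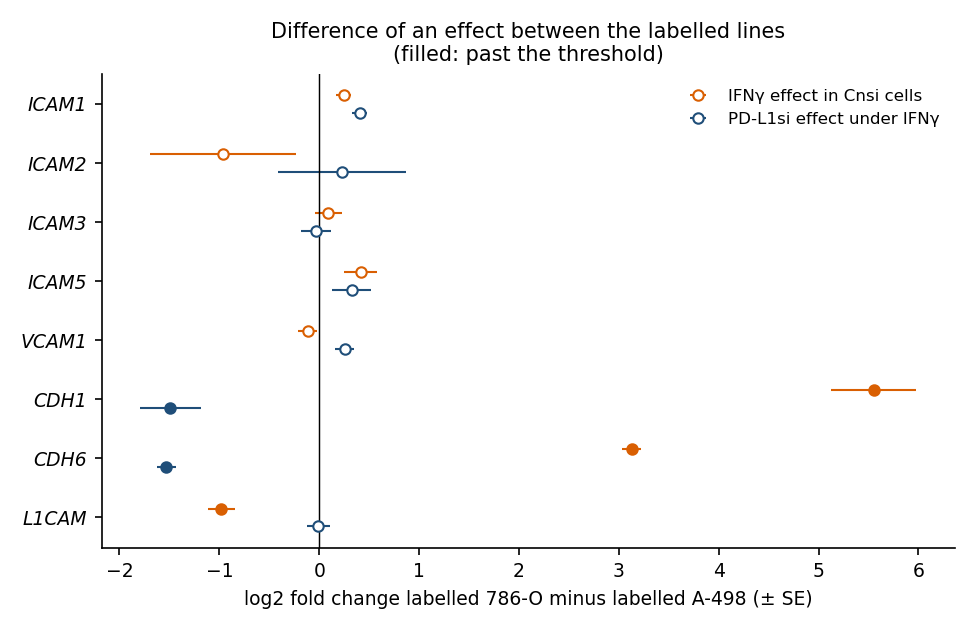
Difference of the IFNγ effect in Cnsi cells (orange) and of the PD-L1si effect under IFNγ (blue) between the labelled lines, as log2 fold change labelled 786-O minus labelled A-498; bars are 1 SE from a fit of 24 libraries, and filled points passed the threshold. CDH1 and CDH6 lay far to the right for IFNγ (5.55 and 3.13) and to the left for PD-L1si (-1.49 and -1.53), whereas VCAM1 lay near 0 for both.

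Reads on the opposite strand were examined because several of the genes overlap antisense transcripts. ICAM4-AS1 shares 815 exonic bases with ICAM1, which is 23.6% of the 3448 exonic bases of ICAM1. Its counts were 21.5% to 25.5% of those of ICAM1 in every library labelled A-498 and 21.6% to 23.4% in every library labelled 786-O, over an ICAM1 range from 4656 to 78526 counts. LIMASI, also opposite to ICAM1, shares 61 of its exonic bases and had 4.56% to 9.38% of its counts labelled A-498 and 6.36% to 13.8% labelled 786-O. The antisense transcript ENSG00000274425 shares 75.4% of the exonic bases of ICAM3 and had 108% to 130% of its counts. For ICAM1 and ICAM3, reads from the gene and from its antisense partner may thus not be told apart, although the counting was stated to use strand, and their part in the changes was not tested. ICAM2 and CDH1 had few counts, and so had their opposite-strand partners. PRR29 had 2 to 10 counts, 60.0% to 200.0% of the ICAM2 count, labelled A-498. It was listed at 0 in all libraries labelled 786-O and treated as not measured there. ENSG00000260798 had 4.29% to 20.0% of the CDH1 count labelled A-498 and at most 9 counts, up to 50.0% of it, labelled 786-O. The partner of CDH6 shares 1.0% of its exonic bases and had 4.85% to 6.93% of its count labelled A-498 and 4.88% to 5.83% labelled 786-O. That of CDH2 shares 3.58% of its exonic bases and had 5.65% to 7.69% of its count labelled A-498. It had 211 to 337 counts in each library labelled 786-O, where CDH2 was listed at 0. CD44-AS1 shares 0.841% of the exonic bases of CD44 and had 6.6% to 8.45% of its count labelled A-498. It had 1260 to 2415 counts in each library labelled 786-O, where CD44 was listed at 0. For CDH6, CDH2 and CD44, too, the source of the partner's reads was not tested. By contrast, L1CAM-AS1 shares 4.94% of the exonic bases of L1CAM but had at most 0.592% of its count labelled A-498 and 0.631% labelled 786-O.

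**Figure D5:**
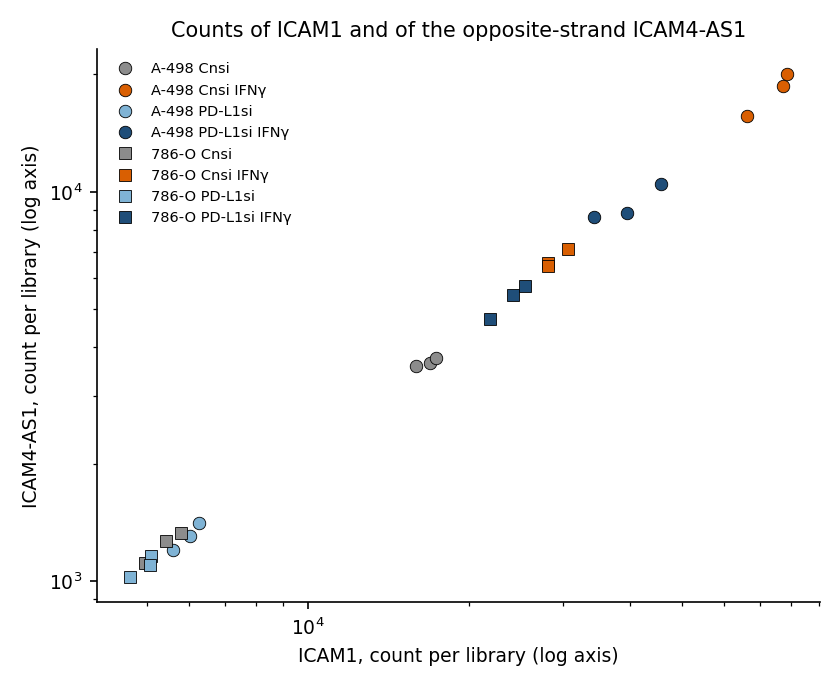
Raw counts of ICAM1 (horizontal) and of ICAM4-AS1 on the opposite strand (vertical) in 24 libraries, both on log axes; circles are libraries labelled A-498, squares those labelled 786-O, and colours stand for the 4 groups. The points lie along 1 line in all groups, at 21.5% to 25.5% of the ICAM1 count.

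The receptors of these molecules were looked at in lists compiled by hand, and the counts in all lists stand beside the share of all genes tested. With IFNγ in Cnsi cells 18.2% of all genes rose and 18.5% fell labelled A-498, and 11.1% rose and 7.39% fell labelled 786-O. With PD-L1si under IFNγ, 4.36% of all genes rose and 5.75% fell labelled A-498, and 1.29% rose and 1.74% fell labelled 786-O. Of 9 leukocyte integrin genes, 7 were tested in the libraries labelled A-498 and 8 in those labelled 786-O. With IFNγ in Cnsi cells 1 fell in the former (ITGB1, from 1633 ± 36.3 to 1068 ± 27.8 CPM) and 3 rose in the latter, among them ITGAM (log2 1.09 ± 0.099) and ITGAL (log2 1.96 ± 0.38), the α chains of Mac-1 and LFA-1. ITGAL stayed at 0.844 ± 0.263 CPM, and none of the integrins passed with PD-L1si under IFNγ. Of other adhesion ligands, 5 of 14 tested genes rose and 4 fell labelled A-498, and 7 of 15 rose and 2 fell labelled 786-O, against the 36.8% and 18.5% of all genes that passed in either direction. CEACAM1, a homophilic adhesion receptor of epithelium and lymphocytes, rose in both, from 0.359 ± 0.12 to 19.0 ± 0.886 CPM labelled A-498 and from 1.48 ± 0.39 to 24.9 ± 3.76 CPM labelled 786-O. CD47 rose labelled A-498 (log2 1.82 ± 0.045). ICAM4 rose labelled 786-O (log2 3.42 ± 0.25), from a low level of 0.324 ± 0.141 to 3.56 ± 0.693 CPM. JAM3 (from 1.21 ± 0.114 to 0.412 ± 0.22 CPM) and MADCAM1 (from 0.704 ± 0.162 to 0.312 ± 0.236 CPM) fell labelled A-498, both at low levels. ALCAM and F11R fell labelled 786-O. With PD-L1si under IFNγ, PODXL fell labelled A-498 (log2 -0.66 ± 0.071), and it was the only 1 of 14 to pass, as against 0 of 15 labelled 786-O.

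Around the cadherins, 3 of 8 tested other cadherins fell with IFNγ labelled A-498 and none rose, and 2 of 11 rose and 2 fell labelled 786-O, where 36.8% and 18.5% of all genes passed, so the share labelled A-498 lay near that of all genes. CDH16, the kidney-specific cadherin, fell labelled A-498 from 34.8 ± 1.0 to 13.7 ± 0.558 CPM. It rose with PD-L1si under IFNγ in both labelled lines, by log2 1.04 ± 0.069 labelled A-498 and 0.69 ± 0.059 labelled 786-O. CDH17 fell with IFNγ in both (log2 -1.42 ± 0.31 and -1.04 ± 0.062), labelled A-498 from only 1.075 ± 0.353 to 0.401 ± 0.0738 CPM. CDH13 rose labelled 786-O (log2 3.01 ± 0.60), but near the lower end of detection, from 0.0545 ± 0.066 to 0.4875 ± 0.1188 CPM. CDH13 fell with PD-L1si under IFNγ labelled A-498 (log2 -0.84 ± 0.14) and CDH3 labelled 786-O (log2 -0.57 ± 0.15). Among 16 tested catenins and junction partners labelled A-498, 3 rose and 4 fell with IFNγ, and among 12 labelled 786-O, 1 rose and 2 fell, against those 36.8% and 18.5%. The tight junction gene CLDN1 rose in both, from 189 ± 3.71 to 632 ± 8.37 CPM and from 50.6 ± 0.407 to 195 ± 7.49 CPM, and fell with PD-L1si under IFNγ in both (log2 -0.54 ± 0.041 and -0.50 ± 0.052). Of the list of CDH1 repressors and mesenchymal genes, 5 of 8 rose and 2 fell labelled A-498, and 3 of 6 rose and 2 fell labelled 786-O, against the same 36.8% and 18.5%. SNAI2, which encodes a repressor of CDH1, rose with IFNγ labelled A-498 (log2 1.82 ± 0.066) and fell labelled 786-O (log2 -0.57 ± 0.20), whereas SNAI1, another such repressor, fell in both (log2 -0.99 ± 0.11 and -0.74 ± 0.057). ZEB1, also a repressor of CDH1, rose labelled 786-O (log2 1.10 ± 0.074). With PD-L1si under IFNγ none of the 8 passed labelled A-498, and SNAI2 fell labelled 786-O (log2 -1.52 ± 0.27) on 0.517 ± 0.13 CPM against 1.5 ± 0.278. The part of these repressors in the changes of CDH1 was not tested.

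Of the ligands, synthases and anchors of CD44, 2 of 12 rose and 5 fell with IFNγ labelled A-498, and 2 of 10 rose and none fell labelled 786-O, where 36.8% and 18.5% of all genes passed, so the share labelled 786-O lay near that of all genes. SPP1, which encodes osteopontin, fell labelled A-498 from 1721 ± 44.5 to 803 ± 51.2 CPM, and MSN, which encodes the anchor moesin, rose labelled 786-O (log2 0.65 ± 0.046). HAS2, a hyaluronan synthase, rose labelled 786-O to 5.54 ± 1.31 CPM. None of these genes passed with PD-L1si under IFNγ in either set. Of the L1 family and its partners, 3 of 9 rose and 2 fell labelled A-498, and 1 of 8 rose and 1 fell labelled 786-O, against the same shares of all genes. ANK2, which encodes an ankyrin of the kind that binds L1 proteins, rose in both (log2 1.42 ± 0.059 and 0.88 ± 0.072), and ANK3 fell labelled 786-O (log2 -1.0 ± 0.11) and rose there with PD-L1si under IFNγ (log2 0.80 ± 0.11). Of the 9 sheddases that release such molecules from the cell surface, 2 fell labelled A-498, where 18.5% of all genes fell. They were ADAM10 (log2 -0.62 ± 0.045) and MMP7 (from 106.5 ± 2.67 to 15.6 ± 0.781 CPM). MMP7 rose labelled 786-O (log2 0.64 ± 0.052), as the only 1 of 8 tested there, where 11.1% of all genes rose. Both shares lay near those of all genes.

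Regulators known to control ICAM1 and VCAM1 rose with IFNγ in 10 of 14 cases labelled A-498 and in 5 of 9 labelled 786-O, and none fell, against 18.2% and 11.1% of all genes that rose. IRF1, a transcription factor induced by IFNγ, rose from 58.7 ± 2.17 to 1445 ± 25.6 CPM and from 38.5 ± 0.706 to 1053 ± 66.0 CPM. With PD-L1si under IFNγ, 7 of these 14 fell labelled A-498, against 5.75% of all genes, with a median log2 fold change of -0.52 against 0.011 for all genes tested, and 0 of 9 passed labelled 786-O, with a median of -0.14. Without IFNγ 8 of 14 fell labelled A-498, against 5.6% of all genes. TNFAIP3, an NF-κB target that restrains the pathway, fell labelled A-498 from 209 ± 11.3 to 70.3 ± 2.7 CPM under IFNγ, and TNF fell from 1.31 ± 0.0789 to 0.268 ± 0.244 CPM. The IRF1 level with PD-L1si and IFNγ was 1255 ± 23.7 CPM labelled A-498 and 1093 ± 21.1 CPM labelled 786-O.

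The genes most like ICAM1 across conditions were searched among 9934 protein-coding genes, as the lower of the within-line Pearson correlations of log2 (CPM + 1) over 12 libraries per line, which share their groups. They were HDAC9 (r 0.995 labelled A-498 and 0.997 labelled 786-O), OPTN (0.993 and 0.996) and CLDN1 (0.996 and 0.992). Those most like VCAM1 were CNP (0.992 and 0.99), IFI27 (0.992 and 0.989) and DNAJC1 (0.997 and 0.988), and those most like CD44, over the libraries labelled A-498 only, were CCBE1 (0.998), DNAJB6 (0.997) and RAI14 (0.996).

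The label of kidney carcinoma cells was checked against markers. Of 9 tubule and ccRCC markers, among them PAX8 and CA9, 9 had a mean of at least 1 CPM across all libraries labelled A-498. Across those labelled 786-O 8 did, and PAX2 was listed at 0. The 9 leukocyte markers with a row summed to 1.51 to 3.31 CPM labelled A-498, with CD2 at 0. They summed to 2.23 to 3.55 CPM labelled 786-O, where CD3D and LCP2 were listed at 0 and treated as not measured. ITGB2 was the only one with a mean of at least 1 CPM across all libraries of a labelled line. The 8 endothelial markers summed to at most 0.518 CPM labelled A-498 with CDH5 at 0. Labelled 786-O, TEK and VWF were listed at 0 and treated as not measured. The others summed to 0.393 to 0.511 CPM in Cnsi and 1.14 to 1.37 CPM in Cnsi IFNγ cells, and to 1.61 to 2.14 CPM in PD-L1si IFNγ cells. No endothelial marker had a mean of at least 1 CPM across all libraries of a labelled line. The lowest group mean of VCAM1, which endothelium also expresses, was 107 ± 1.6 CPM.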

How the data were processed

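RNA from 24 libraries of 2 human ccRCC lines was analysed, with 3 libraries in each of 8 groups taken from the sample labels. The line in the labels' cell line field, written there with a final zero, is spelled 786-O here as in the protocols. The authors trimmed reads with Trimmomatic (0.36.6), aligned them to GRCh38 with HISAT2 (2.1.0) and took counts over the exons of GENCODE 33 with featureCounts (1.6.3), set to use strand, and the deposited values are these raw counts on 39321 genes, without normalization. Their kit was stranded. Every column of the table had a sample.

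In this re-analysis the counts were scaled with TMM and tested with edgeR 4.0.16 (R 4.3.3), by the quasi-likelihood F-test in its older form with robust estimation. The 12 libraries of a labelled line were fitted together, and all 24 for differences between lines, without genes at 0 in all libraries of a line. Genes with at least 10 counts summed over a group were tested (20916 labelled A-498, 21209 labelled 786-O), with Benjamini-Hochberg adjustment over all of them. A gene passed where the adjusted p was under 0.05 and the log2 fold change, up or down, was over 0.5. The standard error is the log2 fold change divided by the square root of F. The 95% intervals of a fold change were taken from it with a normal quantile and are approximate. They are narrower than the test implies, so an interval may exclude 0 where the test did not pass. CPM are counts scaled to the TMM library size, and length came from GENCODE 44 exons. Ratios of low counts have exact binomial intervals that cover counting error only. The alternatives were DESeq2 1.42.0, RLE scaling, other filters, thresholds and forms of the fit, protein-coding genes only, a replicate block, and omission of each library. The fits were tested on simulated data. From each list, up to 2 genes that rose and 2 that fell most per labelled line, with IFNγ or with PD-L1si under IFNγ, were named, with the 3 genes most like ICAM1, VCAM1 and CD44, and a few were left to counts. The 10 genes and all lists were chosen with earlier results of these data known.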

Additional observations from a re-analysis of the deposited data

Results flagged for a closer look

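The IFNγ effect in Cnsi cells differed between the labelled lines, in a test of the difference itself, for CDH1 (5.55, labelled 786-O minus labelled A-498, log2), CDH6 (3.13) and L1CAM (-0.98). The PD-L1si effect under IFNγ differed likewise for CDH1 (-1.49) and CDH6 (-1.53). CDH1 rests on 2 to 4 counts in the Cnsi libraries labelled 786-O, and the labelled lines were sequenced on different instruments. The siRNA lowered CD274 less in the libraries labelled 786-O, so line and strength of the siRNA cannot be told apart. The IFNγ effect differed between siRNAs in the libraries labelled A-498 for CDH1 (1.30), CDH6 (1.03) and ICAM1 (0.85), and in those labelled 786-O for L1CAM (-0.52). ICAM4-AS1 followed the ICAM1 count in each library, and the part of this in the ICAM1 value was not tested.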

How the results depend on the processing

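Every alternative kept the direction of every call of the 10 genes. RLE scaling, the newer form of the fit, no robust estimation, no filter on low counts and protein-coding genes only changed none of 114 calls, and filterByExpr changed none of the 101 it could give, since it removed genes with few counts. A model of only the groups compared changed none of 96, and DESeq2 changed 1 of 114 (ICAM2). Nothing in the labels says that the replicate numbers pair the libraries. Deviations of libraries with the same number had a mean correlation of 0.0383 (-0.078 to 0.195) labelled A-498 and 0.0417 (-0.238 to 0.246) labelled 786-O. For different numbers the means were -0.0191 and -0.0206. Such low values do not settle whether the numbers pair the libraries. With the number as a replicate block the counts of passing genes were unchanged, for example 8 with IFNγ in Cnsi cells labelled A-498 and 4 labelled 786-O. Without the fold threshold 21 more calls were made, and the count became 6 for IFNγ in PD-L1si cells, 5 for PD-L1si under IFNγ and 4 for PD-L1si without IFNγ labelled 786-O, and 5 for the line difference in the IFNγ effect. With a log2 fold change over 1, 15 calls were lost, and the count became 2 for PD-L1si under IFNγ and 1 without it labelled A-498, and 0 for PD-L1si under IFNγ, 0 without it and 0 for the interaction labelled 786-O. Without 1 library at a time, 9 of 1656 calls were lost and 2 gained. The count then ran from 0 to 1 labelled 786-O for PD-L1si under IFNγ, for PD-L1si without IFNγ and for the interaction. The length of the longest transcript in place of all exons raised the levels per kilobase but left the order in Cnsi cells as it was in both labelled lines. Depth limits ICAM2 (2 to 12 counts in a library) and CDH1 without IFNγ labelled 786-O (1 to 8 counts), and CD44 and CDH2 were not measured in the libraries labelled 786-O.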

Other observations

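In cells with PD-L1si, 17.6% of all genes tested rose and 15.9% fell with IFNγ labelled A-498, and 11.0% rose and 7.45% fell labelled 786-O. The lists are given beside these shares. Of 14 regulators of ICAM1 and VCAM1, 11 rose labelled A-498, and 5 of 9 rose labelled 786-O. Of the CDH1 repressors and mesenchymal genes, 5 of 8 rose and 2 fell labelled A-498, and 2 of 6 rose and 2 fell labelled 786-O. Other cadherins fell in 4 of 8 cases labelled A-498, and in 3 of 11 cases labelled 786-O, where 2 rose. With PD-L1si and no IFNγ, 2 of 9 sheddases fell labelled A-498 and none labelled 786-O, where 5.6% and 1.63% of all genes fell. Among the promoters that were not printed, the second listed start site of CDH2 had a κB-like match (GGCATTTCC) at position -16 and an AP-1 match (TGAATCA) at position -102, and the third of ICAM3 had a κB-like match (GGAAGGTCC) at position -7.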
